A study of Homo sapiens with 4 samples.

Results

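Long intergenic non-coding RNA genes (LINC genes) that were expressed in A549 cells were described in the presence and absence of respiratory motion (RM). They were taken from the deposited table of the 2D culture by 3 criteria, namely the gene type lncRNA, a symbol made of LINC and a digit, and a mean of at least 20 normalized counts over the 4 samples. Of 806 LINC lncRNAs among 8844 lncRNAs and 30843 genes, 158 met these criteria and 648 did not reach the mean, of which 307 had a mean under 1. A further 22 genes with such a symbol had another gene type and were not included. The genes were thus chosen by their measured mean level, which is given below as a description, whereas the difference between the groups played no part in the choice.

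A549 is an established human lung adenocarcinoma line with epithelial morphology, labelled wild type, so the results are those of 1 cell line. The RM+ group had been cultured in a sealed chamber whose air pressure moved repeatedly between a slightly negative value and atmospheric pressure, and the RM- group had been cultured without it, with RNA taken from both groups on day 4. Each group had 2 samples, and by the labels, batch 1 holds the first replicate of either group and batch 2 the second. The study describes its key 2D experiments as independently repeated, but no source used here says so of these RNA samples by name, and p-values therefore cover no more than the spread of these samples, which may in part be technical. In bulk RNA, fewer cells that express a gene and less of its RNA per cell cannot be told apart.

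LINC genes lie, by their naming, between protein-coding genes, and their transcripts are capped, spliced and often polyadenylated like mRNA but carry no long open reading frame. Most are present at low levels and are restricted to few cell types. Those with a known role act as scaffolds for chromatin proteins in the nucleus, bind microRNAs or proteins in the cytoplasm, or affect a neighbouring gene through their own transcription. A few carry short reading frames that are translated into micropeptides, and several have been studied in lung cancer for their effects on proliferation and invasion. Many non-coding transcripts in the nucleus are removed by the RNA exosome.

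The name of the group was checked against the annotation. All 158 genes were found in GENCODE 29 on GRCh38, where 129 had the type lincRNA, 16 were processed transcripts, 9 were antisense RNAs, 2 came from bidirectional promoters, 1 was sense overlapping and 1, LINC02693, was protein coding. By the coordinates of the table, 63 genes overlapped no other gene, 95 overlapped at least 1 gene on either strand and 24 overlapped a protein-coding gene. The word intergenic therefore held for fewer than the whole group. Overlaps are pointed out below for some genes only. Among the other genes named below, LINC00847, LINC00294, LINC00662, LINC00511, LINC00574, LINC02175, LINC01116, LINC00707, LINC01833, LINC00467 and LINC00472 also overlap another gene. The levels of all such genes are uncertain, because no source used here gives the strand setting of the counting or its treatment of reads with several matches. The genes that overlapped no protein-coding gene lay at a median of 24.2 kb from the nearest one that reached 10 normalized counts in 2 or more samples. The nearest protein-coding gene has this meaning throughout, so an unexpressed gene may lie closer. The largest number of genes, 16, was on chromosome 7, followed by 14 on chromosome 2 and 13 each on chromosomes 1 and 10.

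The start regions of 4 genes are shown, LINC00963 and LINC00863 among the genes with higher values in the RM+ group and LINC00261 and LINC00923 among those with lower values. They were picked from the genes described below. LINC00689, with higher values, and LINC00173, with lower values, also had a RefSeq start region, which is not shown. They come from RefSeq on GRCh38.p14, run from 250 bases before to 50 bases after the annotated start, and are written in the direction of transcription. Capitals mark matches, on either strand, to 6 motifs, namely the cAMP response element TGACGTCA, the AP-1 element TGANTCA, the hypoxia core ACGTG, the E-box CACGTG, which contains the hypoxia core, the TATA box TATAAA and the CCAAT box. The windows are chr9:129488410-129488709 on the plus strand for LINC00963, chr10:87342486-87342785 on the plus strand for LINC00863, chr20:22578593-22578892 on the minus strand for LINC00261 and chr15:97874380-97874679 on the minus strand for LINC00923. The RefSeq starts of LINC00963, LINC00863 and LINC00923 lie inside the genes of the table, and that of LINC00261 falls on its end.
LINC00963: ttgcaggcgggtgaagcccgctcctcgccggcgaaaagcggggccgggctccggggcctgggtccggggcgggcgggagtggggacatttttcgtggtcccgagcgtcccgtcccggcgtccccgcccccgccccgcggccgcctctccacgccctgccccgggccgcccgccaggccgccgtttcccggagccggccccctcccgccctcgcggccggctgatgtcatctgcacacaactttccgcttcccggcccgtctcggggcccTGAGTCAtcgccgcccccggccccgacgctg
LINC00863: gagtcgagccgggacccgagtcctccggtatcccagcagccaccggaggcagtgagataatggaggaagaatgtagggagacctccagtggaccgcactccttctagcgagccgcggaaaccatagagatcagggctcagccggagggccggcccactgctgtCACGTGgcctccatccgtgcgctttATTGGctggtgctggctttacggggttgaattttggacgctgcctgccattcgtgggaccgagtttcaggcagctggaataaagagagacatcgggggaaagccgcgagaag
LINC00261: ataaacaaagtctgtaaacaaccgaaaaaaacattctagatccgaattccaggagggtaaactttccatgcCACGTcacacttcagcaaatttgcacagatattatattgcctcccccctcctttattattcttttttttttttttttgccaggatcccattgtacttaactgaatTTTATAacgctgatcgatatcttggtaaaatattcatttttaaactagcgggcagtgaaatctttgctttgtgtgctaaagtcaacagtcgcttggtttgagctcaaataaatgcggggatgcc
LINC00923: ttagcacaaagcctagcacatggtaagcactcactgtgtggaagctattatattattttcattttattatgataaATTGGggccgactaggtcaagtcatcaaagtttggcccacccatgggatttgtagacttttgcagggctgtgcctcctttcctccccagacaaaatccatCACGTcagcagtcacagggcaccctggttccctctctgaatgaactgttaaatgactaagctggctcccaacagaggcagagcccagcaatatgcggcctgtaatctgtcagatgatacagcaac
Of these 4 genes, the 2 with higher values had GC-rich starts with 43 CpG dinucleotides (LINC00963) and 21 (LINC00863), whereas LINC00261 had 8 and LINC00923 had 3. A relation between the start region and the direction of change was not tested. LINC00963 held 1 AP-1 match and no other. LINC00863 held 1 CCAAT box and 1 E-box, within which the hypoxia core matched 2 times, once on each strand. LINC00261 held 1 hypoxia core and 1 TATA box, and LINC00923 held 1 hypoxia core and 1 CCAAT box.

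A RefSeq start region was matched for 119 of the 158 genes. The cAMP response element was present in 2.52% of them against 1.85% of all 35116 start regions, the AP-1 element in 10.9% against 7.71%, the hypoxia core in 28.6% against 21.4% and the E-box in 5.88% against 7.26%. The TATA box was present in 13.4% against 11.5% and the CCAAT box in 39.5% against 34.6%. The median number of CpG dinucleotides was 11 against 14, and the median GC content was 58.3% against 58.7%. Such matches describe the letters of these windows and do not show that a factor binds there.

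The libraries held 18754356 to 20412283 reads, of which the LINC genes took 0.0980% to 0.102% and all lncRNAs 3.61% to 3.72%. Between replicates, the chi-square per gene was 8.99 (RM-) and 10.5 (RM+), and over the LINC genes 2.44 and 2.86, where a value of about 1 would be due to counting error alone. Where genes vary beyond counting error, this value rises with the reads of a gene. It therefore does not rank the LINC genes, which had fewer reads, against all genes. The share of mitochondrially encoded transcripts was 5.36% (RM-) and 4.56% (RM+) in batch 1 and 3.69% and 2.57% in batch 2. Of the marker genes, 5 of 5 epithelial genes were present, with a summed level of 89707 to 98700 normalized counts led by KRT8 and KRT18, which encode keratins of simple epithelia. Of 4 alveolar genes, NAPSA reached 13.1 to 24.2 normalized counts, whereas the lineage factor NKX2-1 and the surfactant genes SFTPB and SFTPC stayed at 2.87 or below. Among the markers of other cell types, COL1A1 (130 to 154) and CD14 (181 to 231) were present, whereas the fibroblast genes DCN, LUM and COL3A1 stayed at 4.04 or below, the leukocyte gene PTPRC at 2.87 or below and the 4 endothelial genes at 9.14 or below.

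Levels ranged from 20.4 to 1194 normalized counts with a median of 53.0, against a median of 321 over all genes tested. Of the LINC genes, 44 had a mean of at least 100, 38 a mean of 50 to 100 and 76 a mean under 50. Per kb of annotated exon, LINC01504 was the highest at 486 normalized counts, followed by LINC02582 at 404, LINC00847 at 319, LINC01836 at 247 and LINC02870 at 228. Just above the minimum were LINC01146, LINC00242 and LINC02600, each at 20.4, and just below it LINC01139, LINC03026 and LINC01560, each at 19.0. At that level single samples scattered widely, as in LINC01560, which had 23.2 and 14.3 in the RM- and 8.13 and 30.3 in the RM+ replicates.

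To find whether RM changed the LINC genes, the RM+ group was compared with the RM- group by limma-trend on log2(normalized count + 1), on which scale the changes of low genes are understated. LINC00963 was higher in the RM+ group at an adjusted p under 0.05, and it was the only one of the 158 genes, or 0.633%, to pass, against 2.26% of the 17632 genes tested. Higher calls made up 1.46% and lower calls 0.794% of all genes tested, and 0 LINC genes were called lower. At an unadjusted p under 0.05 there were 16 LINC genes (10.1%), 10 higher and 6 lower, against 14.5% of all genes. This count was 7 (4.43%, against 8.71% of all genes) by DESeq2 and 8 (5.06%, against 11.7%) without RM+ replicate 2. At the adjusted threshold edgeR, DESeq2 and limma-voom on the recovered reads also called LINC00963 alone. Of the other lncRNAs with a mean of at least 20, 20 of 2373 were called higher and 11 lower, and of the 12005 genes whose mean fell within the range of the LINC genes, 173 and 89.

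The LINC genes as a group stayed close to the rest of the transcriptome. Their median log2 fold change was -0.05, with 67 genes above 0 and 91 below, and that of all genes tested was -0.00. Single values ran from -1.09 to 1.03. The groups did not overlap in 66 LINC genes (41.8%), against 44.4% of all genes, and the RM+ samples were above in 30 of them and below in 36. In 117 of the 158 genes the 95% confidence interval lay within a log2 fold change of -1 to 1. In these genes a change beyond 2-fold lay outside the interval. The precision followed the level, with a median SE of 0.15 at a mean of at least 100, 0.24 at 50 to 100 and 0.35 below 50, and 0.13 over all genes. With 2 samples a group, an exact permutation test of a single gene cannot go below a two-sided p of 0.333, so calls rest on the spread that limma borrows from the other genes.

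**Figure D1:**
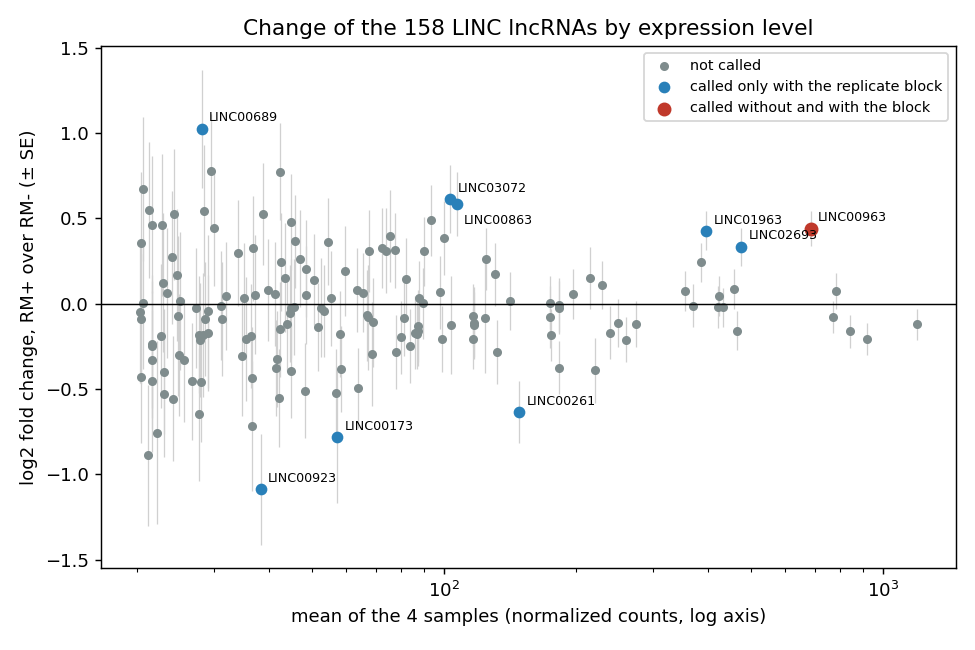
Log2 fold change of each LINC gene (vertical axis, RM+ over RM-, with its SE as a bar) against its mean level in normalized counts (horizontal log axis). The points narrow from between -1.09 and 1.03 at low levels to values near 0 at high levels, with LINC00963 the single gene called both without and with the replicate block.

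When the replicate number, which is the batch, entered the fit as a block, 9 LINC genes (5.7%) were called, 6 higher and 3 lower, against 9.74% of all genes (5.1% higher and 4.63% lower). That fit has 1 residual degree of freedom and takes its spread from all genes pooled, so its adjusted p-values do not reflect how much each gene varied. The values of these genes follow, and each is given with both p-values.

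LINC00963 (ENSG00000204054, chr9:129476946-129513687, plus strand), a lncRNA first described in prostate cancer cells and later in lung cancer, is the gene whose GC-rich start with an AP-1 match is printed above. It had 596 and 566 normalized counts in the RM- and 829 and 749 in the RM+ replicates. Both RM+ samples were above both RM- samples, and the distance between the groups exceeded the distance within either. The means were 581 ± 21.4 and 789 ± 56.5 (SD, n = 2), a 1.36-fold difference and a log2 fold change of 0.44 (SE 0.10, adjusted p = 0.0305 by limma-trend, 6.41e-05 with the block). The log2 difference was 0.48 in batch 1 and 0.40 in batch 2. The adjusted p was 0.0365 by edgeR, 0.0395 by DESeq2 and 0.0421 by limma-voom, but the call was lost without RM- replicate 2 (0.40, adjusted p = 0.0832) and without RM+ replicate 1 (0.37, adjusted p = 0.148).

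LINC00963 overlaps a pair of lncRNA genes on the opposite strand. One of them, ENSG00000261334, had a mean of 1.01 normalized counts, and the other, ENSG00000286078, had a mean of 173 and a log2 value of 0.29 for RM+ over RM- (adjusted p = 0.462). As the strand setting of the counting is not given, reads of LINC00963 and of ENSG00000286078 cannot be told apart with certainty. The nearest protein-coding gene, NTMT1, which encodes an N-terminal methyltransferase, lay 95.2 kb away, with a value of -0.03 on the log2 scale (adjusted p = 0.941). LINC01503, another LINC gene on the same strand 117 kb away, had a value of -0.30 (adjusted p = 0.771).

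Another 5 genes were called higher only with the block. LINC01963 (chr2:216217045-216220192), which overlaps no gene and lies 10.7 kb from XRCC5, the gene of the DNA end-binding protein Ku80, had 334 and 341 normalized counts in the RM- and 469 and 439 in the RM+ replicates. Its log2 fold change of 0.43 (SE 0.12) had an adjusted p of 0.0655 by limma-trend and 0.0026 with the block, and that of XRCC5 was -0.09 (adjusted p = 0.719). It was named after its values were seen. LINC02693 (chr17:21428263-21574517) had 409 and 432 in the RM- and 559 and 503 in the RM+ replicates, a log2 fold change of 0.33 (SE 0.11, adjusted p = 0.157, 0.0169 with the block). It overlaps ENSG00000266466 on the opposite strand, a lncRNA with a mean of 25.1 and a log2 value of 1.20 (adjusted p = 0.119).

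LINC00863 (chr10:87341685-87357882) had the closest replicates of these genes, with 85.8 and 85.1 normalized counts in the RM- and 128 and 129 in the RM+ group. The 1.51-fold difference corresponded to a log2 fold change of 0.59 (SE 0.19, adjusted p = 0.136, 0.0309 with the block), and to 0.57 and 0.60 within the batches. The gene shares its locus with NUTM2D on the same strand (mean 25.3, log2 fold change 0.31, adjusted p = 0.77), a member of a duplicated gene family, and with NUTM2A-AS1 on the opposite strand (mean 527, log2 fold change -0.05, adjusted p = 0.894). Reads could have been split between them, so its level is uncertain.

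LINC03072 (chr7:128524016-128531069), which overlaps no gene, had 90.8 and 72.7 normalized counts in the RM- and 117 and 133 in the RM+ replicates, a log2 fold change of 0.61 (SE 0.20, adjusted p = 0.147, 0.0249 with the block). Its difference was 0.36 in batch 1 and 0.87 in batch 2. LINC00689 (chr7:159006522-159030195) had the largest positive value of the whole group, with 20.2 and 16.3 against 40.6 and 35.3. The 2.09-fold difference corresponded to a log2 fold change of 1.03 (SE 0.35, adjusted p = 0.162, 0.0499 with the block), with 0.98 and 1.07 within the batches. On the opposite strand it overlaps VIPR2, the gene of a receptor for vasoactive intestinal peptide, which had a mean of 11.8 and a value of 0.41 on the log2 scale (adjusted p = 0.809).

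**Figure D2:**
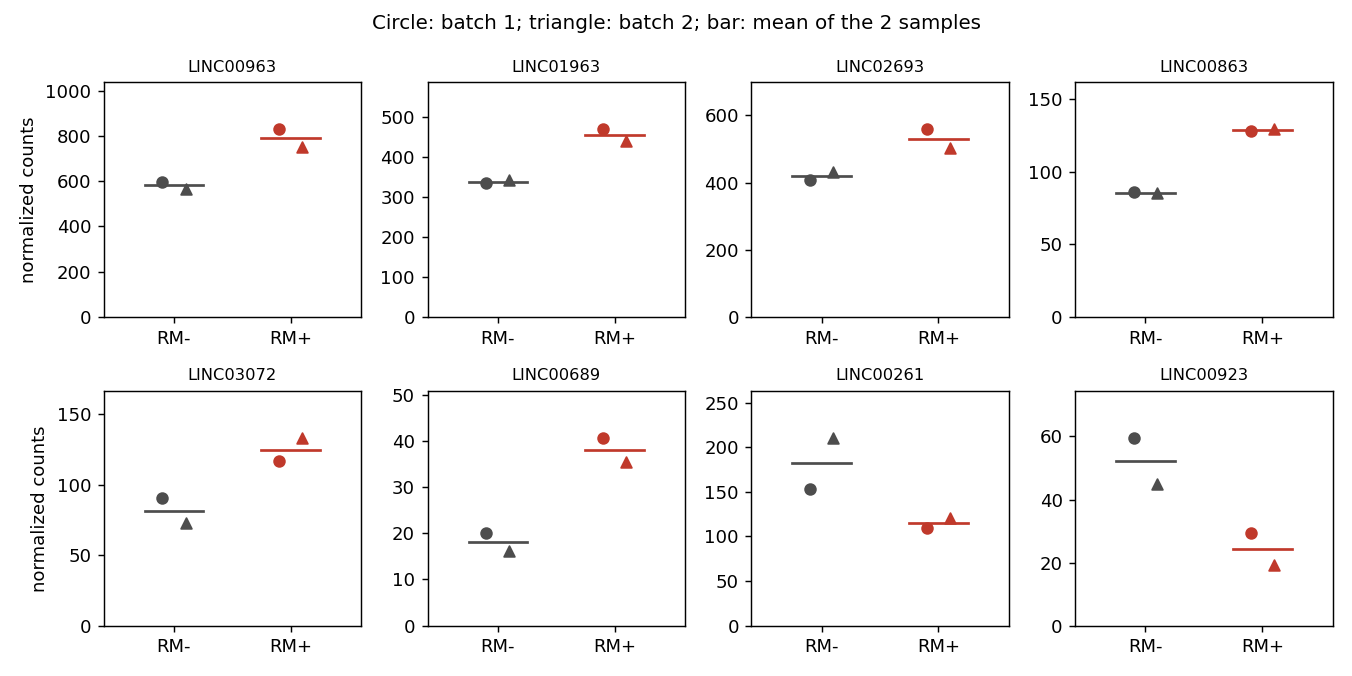
Normalized counts (vertical axes, from 0) of 8 LINC genes in each sample of the RM- and RM+ groups, with circles for batch 1, triangles for batch 2 and a bar at the mean of the 2 samples. The 8 genes were picked from those called with the block, and LINC00173, in which the groups overlap, is not shown. In the genes shown the groups do not overlap, as in LINC00863 with 85.8 and 85.1 against 128 and 129. The same held for 44.4% of all genes tested.

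The genes called lower with the block were LINC00261, LINC00923 and LINC00173. LINC00261 (chr20:22547663-22578642), known from human endoderm differentiation, in which it promotes the expression of its neighbour FOXA2, had 153 and 210 normalized counts in the RM- and 110 and 121 in the RM+ replicates. Both RM+ samples were lower, by 1.57-fold on average, with a log2 fold change of -0.63 (SE 0.18, adjusted p = 0.0903, 0.00359 with the block) and -0.48 and -0.79 within the batches. When RM- replicate 1 was left out its log2 fold change was -0.86, but the RM- group is then in batch 2 only, so the batch difference enters that value. FOXA2, a forkhead transcription factor of the endoderm and the lung epithelium, lies 2.36 kb away. It had 1100 and 930 normalized counts in the RM- and 813 and 771 in the RM+ replicates, a log2 fold change of -0.35 (adjusted p = 0.0903, 0.00085 with the block). Both genes of this pair thus had lower values in the RM+ samples, and neither passed without the block when all samples were used.

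LINC00923 (chr15:97572185-97875650), with the CpG-poor start printed above, had the largest negative value of the group. It had 59.5 and 44.9 normalized counts in the RM- and 29.5 and 19.2 in the RM+ replicates. The 2.15-fold difference corresponded to a log2 fold change of -1.09 (SE 0.32, adjusted p = 0.101, 0.0112 with the block), with -0.99 and -1.19 within the batches. When RM+ replicate 1 was left out the log2 fold change was -1.39. The RM+ group is then in batch 2 only, so the batch difference of this gene (-0.50 for batch 2 over batch 1) enters that value. LINC00923 and LINC00689 were the 2 LINC genes (1.27%) beyond a log2 fold change of 1 at an unadjusted p under 0.05, against 1.15% of all genes. DESeq2 gave neither of them an adjusted p.

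LINC00173 (chr12:116533422-116536518) differed more between the batches than between the groups. It had 97.9 and 45.9 normalized counts in the RM- and 61.0 and 24.2 in the RM+ replicates, so the groups overlapped, whereas within each batch the RM+ sample was lower. Its log2 fold change was -0.78 (SE 0.39, adjusted p = 0.371, 0.0402 with the block), and -0.67 and -0.89 within the batches. When RM- replicate 2 was left out it was -1.32, and when RM+ replicate 1 was left out -1.43. In those fits 1 group is in a single batch, so the batch difference enters the value. LINC00472, named after its values were seen, had 288 and 212 in the RM- and 234 and 151 in the RM+ replicates (log2 fold change -0.39, adjusted p = 0.368, 0.0529 with the block). Without RM+ replicate 1 its log2 fold change was -0.70, with the same limit.

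Within the batches the median log2 difference of the LINC genes was -0.05 (batch 1) and -0.11 (batch 2). The sign was the same in both batches in 89 of the 158 genes (56.3%), against 62.7% of all genes and 55.7% of the other lncRNAs with a mean of at least 20. LINC02175, the one gene with a sample under 10 normalized counts, had 17.2 and 36.3 in the RM- and 28.5 and 7.07 in the RM+ replicates. Its difference was 0.70 in batch 1 and -2.21 in batch 2. LINC00540 had 34.3 and 55.4 against 39.6 and 17.2, with 0.20 in batch 1 and -1.64 in batch 2.

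**Figure D3:**
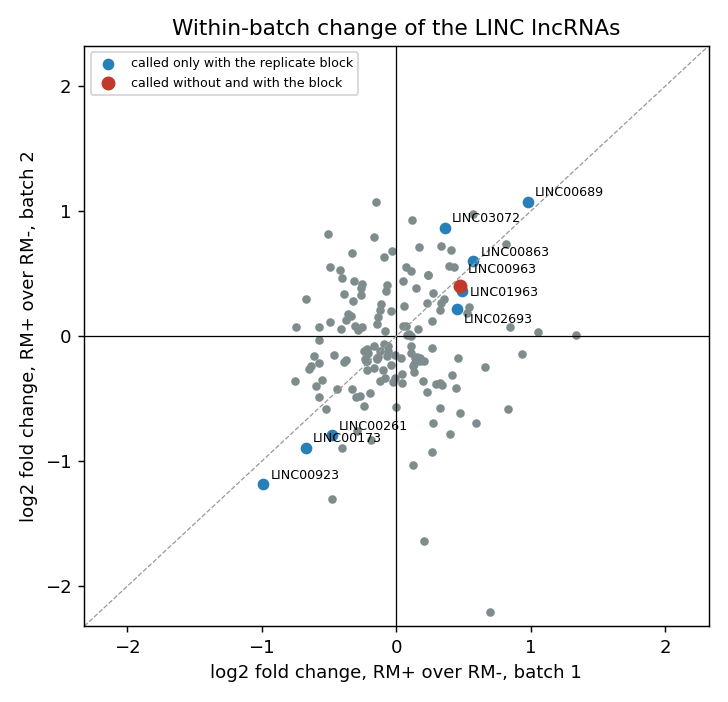
Log2 fold change of each LINC gene in batch 1 (horizontal axis) and batch 2 (vertical axis), with the diagonal as a dashed line. The 9 genes called with the block, among them LINC00963 at 0.48 and 0.40, lie in the upper right and lower left quadrants, and 89 of the 158 genes share a sign. The block fit calls genes on the mean of the within-batch differences. A shared sign among its calls is therefore largely given by the choice.

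The remaining genes with large differences did not pass in either fit. LINC00839 had 19.2 and 23.9 normalized counts in the RM- and 34.5 and 40.4 in the RM+ replicates (log2 fold change 0.78, SE 0.34, adjusted p = 0.289). LINC00488 had 33.3 and 28.7 against 49.8 and 57.6 (0.77, SE 0.29, adjusted p = 0.205). Both were separated between the groups, but at these levels the SE was about 0.3. LINC00574 had 11.1 and 21.0 against 29.5 and 21.2 (0.67, SE 0.42, adjusted p = 0.511), with 1.33 in batch 1 and 0.01 in batch 2. LINC01589, 3.30 kb from FBLN1, the gene of the matrix protein fibulin, had 20.2 and 36.3 against 14.2 and 14.1 (-0.89, SE 0.41, adjusted p = 0.331). LINC02535 is described with its neighbour below.

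The LINC genes with the most reads differed little between the groups. LINC01504, which overlaps ZFAND5 on the opposite strand, had 1228 and 1260 normalized counts in the RM- and 1096 and 1192 in the RM+ replicates (log2 fold change -0.12, SE 0.09, adjusted p = 0.601). LINC02582 had 968 and 1001 against 865 and 840 (-0.21, SE 0.09, unadjusted p = 0.0379, adjusted p = 0.304), with a 95% confidence interval of -0.40 to -0.01. LINC02864, which lies on the other strand 60.5 kb from LINC02582, had 848 and 927 against 767 and 818 (-0.16, adjusted p = 0.482). Both of these chromosome 18 genes were lower in both RM+ samples without passing the adjusted threshold. LINC00847 (0.07), LINC01234 (-0.08), LINC02870 (-0.16), LINC00294 (0.08) and LINC00662 (-0.02) had log2 fold changes near 0, with adjusted p-values of 0.579 to 0.966, and in LINC00847, LINC00294 and LINC00662 the sign changed when single samples were left out. In LINC00662, with 434, 437, 408 and 450 normalized counts in the order RM- 1, RM- 2, RM+ 1 and RM+ 2, the interval ran from -0.26 to 0.22.

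Of 18 LINC genes listed for their study in lung cancer, 9 reached the minimum and LINC00963 alone was called. Over all genes tested, 2.26% were called in either direction, and a single call among 9 genes is too few to compare with that share. LINC00511, reported to promote proliferation in lung and breast cancer, came next with 350 and 355 normalized counts in the RM- and 409 and 425 in the RM+ replicates. The groups did not overlap, and the log2 fold change was 0.24 (SE 0.11, unadjusted p = 0.0496, adjusted p = 0.343). LINC01116 had a value of 0.17, LINC00857 of -0.02, LINC00707 of -0.17 and LINC01833 of -0.18, with adjusted p-values of 0.655 to 0.972. Of the listed genes below the minimum, LINC00460 had a mean of 0.252 normalized counts, LINC00942 of 2.03 and LINC00958 of 0.984. LINC00673, LINC01207, LINC00346, LINC00152, LINC00312 and LINC00968 were not found under these symbols, so their levels are not known here.

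Among the LINC genes listed as sources of micropeptides, LINC00467 reached the minimum. Its transcript encodes a peptide that associates with the mitochondrial ATP synthase in colorectal cancer cells. It had 104 and 109 normalized counts in the RM- and 88.4 and 95.9 in the RM+ replicates, a log2 fold change of -0.21 (SE 0.19, adjusted p = 0.692). LINC00665 had a mean of 7.95 and LINC00278 of 0.759, both below the minimum. LINC00961, LINC00998, LINC01420, LINC00493, LINC00908, LINC00266-1 and LINC00116 were not found under these symbols, so their levels are not known here. The cAMP-responsive LINC00473 and the p53-responsive LINC01021 were not analysed here.

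Several LINC genes differed between the batches. In the fit with both terms, in which 9 LINC genes were called for RM, 6 LINC genes (3.8%) were lower in batch 2 and 0 higher, against 2.09% of all genes called in either direction and 1.75% called lower. The batches did not overlap in 51 LINC genes (32.3%), 25 higher and 26 lower in batch 2, against 33.9% of all genes. The genes called are LINC00342, LINC00173, LINC00472, LINC02593, LINC02604 and LINC00265, named after their values were seen. LINC00342 had 157 and 181 normalized counts in batch 1 and 89.9 and 69.7 in batch 2, the RM- sample first (log2 difference -1.08, SE 0.18, adjusted p = 1.61e-06). LINC00173 followed with -1.19 (adjusted p = 0.00134). LINC02604 had 86.8 and 86.4 in batch 1 and 50.7 and 45.4 in batch 2 (-0.84, adjusted p = 0.0302), almost the same in both groups. LINC02593 (-0.74), LINC00265 (-0.82) and LINC00472 (-0.53) had adjusted p-values of 0.0123 to 0.0332. No source used here says in what the batches differed.

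**Figure D4:**
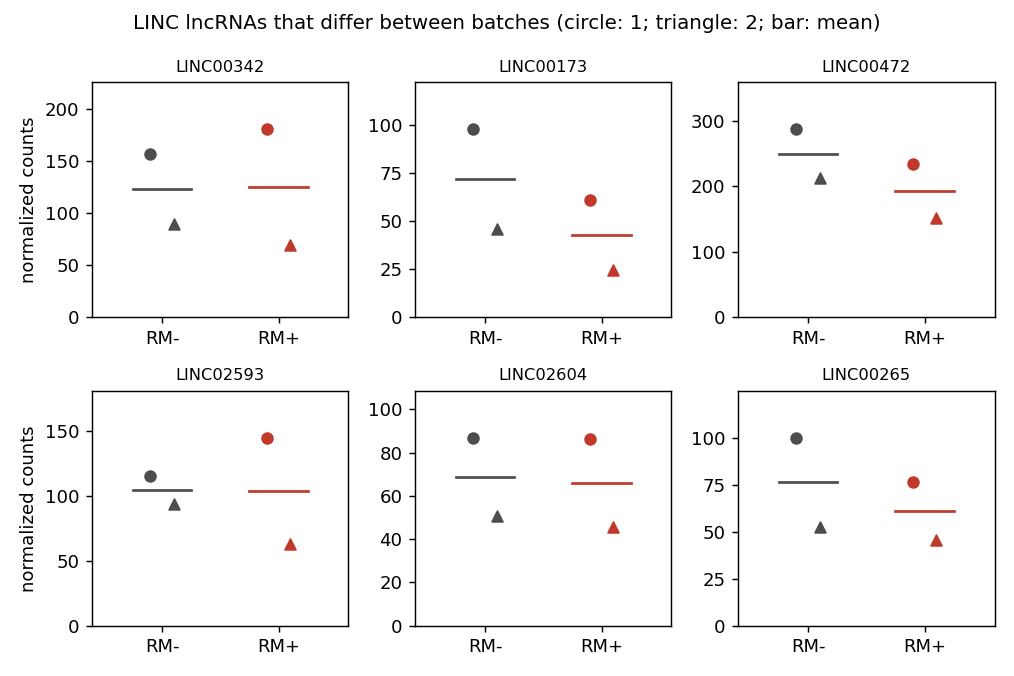
Normalized counts (vertical axes, from 0) of the 6 LINC genes that differed between the batches, with circles for batch 1, triangles for batch 2 and a bar at each group's mean of 2 samples. The triangles lie below the circles in both groups, as in LINC00342 with 89.9 and 69.7 in batch 2 against 157 and 181 in batch 1.

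The protein-coding neighbours were then compared with the LINC genes, since some lncRNAs affect adjacent genes. The 158 LINC genes had 144 distinct nearest protein-coding genes among those tested. Of these, 3 (2.08%) were called higher, against 1.46% of all genes tested, and 1 (0.694%) lower, against 0.794%. With the block 6 (4.17%) were called higher, against 5.1% of all genes, and 13 (9.03%) lower, against 4.63%. Their median log2 fold change was -0.03. SLC1A4, which encodes the neutral amino acid transporter ASCT1, was higher with 0.52 (adjusted p = 0.00818), whereas LINC02245, which overlaps it on the opposite strand, had 33.3 and 28.7 normalized counts in the RM- and 22.4 and 22.2 in the RM+ replicates (-0.45, adjusted p = 0.604). TMEM250 was higher with 0.42 (adjusted p = 0.0266) and lies 5.16 kb from LINC02846, which had 15.1 and 32.5 against 32.5 and 33.3 (0.54, adjusted p = 0.574). CCDC71L was higher with 0.51 (adjusted p = 0.0392), 114 kb from LINC02577, which had 31.3 and 31.5 against 39.6 and 52.5 (0.52, adjusted p = 0.453). NT5E, the gene of the AMP-hydrolysing ectoenzyme CD73, was lower with -0.46 (adjusted p = 0.0443), and LINC02535, 59.4 kb from it, had 23.2 and 45.9 against 17.3 and 24.2 (-0.65, adjusted p = 0.484). None of the LINC genes next to a called neighbour passed the test.

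Over the 158 pairs, the LINC gene and its neighbour had the same sign in 95, with a Pearson's r of 0.19 and a Spearman's rho of 0.27. Among the 74 pairs within 10 kb, 42 had the same sign (r = 0.21, rho = 0.22). These correlations are across genes of the same 4 libraries, which are not independent replicates, and overlapping genes may share reads.

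**Figure D5:**
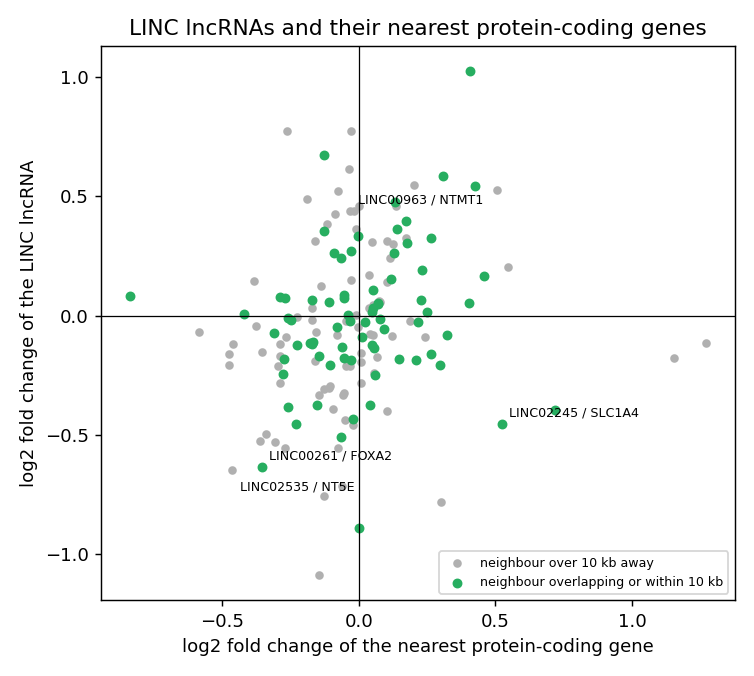
Log2 fold change of each LINC gene (vertical axis) against that of its nearest protein-coding gene (horizontal axis), in green where the gene overlaps or lies within 10 kb. The cloud is centred near 0 on both axes (r = 0.19 over 158 pairs), with LINC00261 and FOXA2 both below 0 and LINC02245 and SLC1A4 on opposite sides.

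LINC genes also lay near each other, with 33 of them in 18 pairs within 200 kb, of which 13 had the same sign. LINC03015 and LINC03014, on opposite strands of chromosome 7 with 0.022 kb between them, went in different directions. LINC03015 had 54.5 and 45.9 normalized counts in the RM- and 37.6 and 30.3 in the RM+ replicates (log2 fold change -0.55, adjusted p = 0.403), and LINC03014 had 26.2 and 14.3 against 28.5 and 28.3 (0.52, adjusted p = 0.595). Neither difference passed the test. The overlapping genes LINC01270 and LINC01271 had values of -0.17 and -0.28.

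Genes that process or degrade non-coding transcripts were examined beside the LINC genes. Of 50 genes tested of the RNA exosome, its adaptors, the Integrator complex and 3' end processing, 0 passed at an adjusted p under 0.05 by limma-trend and 0 by edgeR, DESeq2 or limma-voom, with 2 higher and 4 lower (12%) at an unadjusted p under 0.05, against 14.5% of all genes, and the median was -0.06 with 34 genes below 0. With the block, PCF11, a 3' end cleavage factor (0.29, adjusted p = 0.113 without the block), and EXOSC6, an exosome subunit (0.28, 0.245), were called higher. ZCCHC7 (-0.34, 0.212) and ZFC3H1 (-0.27, 0.259), both cofactors of nuclear RNA decay, and the Integrator subunit INTS13 (-0.26, 0.232) were called lower with it, which makes 10.0% of the list against 9.74% of all genes. Without RM- replicate 1, 1 gene of the list was called higher. Of 12 targets and cofactors of the cAMP-responsive factor CREB, 2 (16.7%, against 1.46% of all genes) were called higher and 0 lower, with a median of 0.09. They were NR4A3 (1.18, adjusted p = 0.00316) and SIK1 (1.46, adjusted p = 0.00751). The study had already reported both genes as changed by RM in 2D culture. As the list was chosen with earlier results of these data known, its share is a description and not a test. SIK1 had 132 and 91.8 normalized counts in the RM- and 463 and 201 in the RM+ replicates, was not called by DESeq2 (adjusted p = 0.231), and ranged from 0.86 to 2.06 when single samples were left out. DESeq2 called 1 of the 12 higher, and 229 of all genes. The block fit called 3 higher (25.0%, against 5.1% of all genes). With no filter 0 of the 12 were called, and 0 of all genes.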

How the data were processed

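RNA from 4 samples of A549 cells in 2D culture was sequenced by the authors after poly(A) enrichment using a directional library kit. HISAT2 2.1.0, featureCounts 1.6.3 and DESeq2 1.24.0, after FastQC 0.11.7 and Trimmomatic 0.38, are listed with GRCh38 in the submitters' processing notes, whereas the annotation release and whether counting used the strand were not given in the sources used here. The deposited signal per gene and sample is the read count divided by a size factor. The deposited score columns (mean, fold change, standard error, statistic) and the deposited p-value columns hold the authors' own comparison and were not used.

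Taking the smallest positive value of a column as 1 read, 100% of the values were whole reads within 1e-06, and the depth of 18754356 to 20412283 reads limits the precision of low genes. As the values are scaled counts, limma-trend (limma 3.58.1, R 4.3.3) on log2(value + 1) was the main test, for the 17632 genes that reached 10 normalized counts in 2 or more samples, with Benjamini-Hochberg adjustment over all of them and a threshold of 0.05. No covariate entered this test. The batch given by the labels entered only the fit with the replicate block, which called 9 LINC genes against 1 without it. All 158 LINC genes were tested, and 157 had at least 10 in every sample. The test was checked on simulated data that held no batch difference and only changes larger than that of LINC00963. That check therefore does not bear on the batches or on changes as small as this one. Alternatives were edgeR 4.0.16, DESeq2 1.42.0 and limma-voom on the recovered reads, pseudocounts of 0.5 and 5, other filters, the replicate block, each sample left out, a mean of at least 50 and genes that overlap no other.

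The labels give the replicate number as the batch, so the numbers pair the samples; the deviations of same-numbered samples from their group means had a correlation of 0.168 over 17632 genes and 0.139 over the LINC genes. Batch differences were taken from the fit with group and batch. Gene types and exon lengths came from GENCODE 29 and start regions from RefSeq (GRCh38.p14).

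The genes and lists were chosen with earlier results of these data known. Named were all genes past the adjusted threshold, the 10 with the highest mean, the 6 largest changes in each direction, the members of the role lists (lung cancer, micropeptide, CREB and p53) and the genes next to the mean of 20. Of the other lists, the called genes and the nearest protein-coding gene of each called LINC gene were named. Where a gene outside this rule is named, it was chosen after its values were seen.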

Additional observations from a re-analysis of the deposited data

How the results depend on the processing

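Of 347 values of the 29 named LINC genes under the alternatives, 328 kept their direction and their side of the threshold. In these 328, a DESeq2 value without an adjusted p, as in LINC00689 and LINC00923, was counted as not passing. Another 9 values came to pass the threshold and 3 no longer passed. The other 7, none of them past the threshold in either fit, changed sign. These 7 arose when single samples were left out, which gave -0.033 to 0.18 in LINC00847 (below 0 without RM- or RM+ replicate 2), -0.034 to 0.20 in LINC00294 (below 0 without RM- replicate 1), -0.092 to 0.049 in LINC00662 and -0.38 to 0.031 in LINC00707 (both above 0 without RM+ replicate 1), -0.15 to 0.11 in LINC00857 (above 0 without RM- replicate 1) and -1.69 to 0.18 in LINC02175 (above 0 without RM+ replicate 2). With no filter, which adds low genes to the shared spread, 0 LINC genes were called higher (15 passed unadjusted), and 0 of all genes were called higher and 0 lower. LINC00963 then had an adjusted p of 0.42, and its adjusted p ranged from 6.41e-05 to 0.42 over its alternatives. With the replicate block, 6 LINC genes were called higher and 3 lower, and 900 and 817 of all genes. Without the LINC genes that overlap another gene, 0 of the remaining 63 were called higher, since LINC00963 is among those left out. With each sample left out in turn, 0 to 1 LINC genes were called higher and 0 to 3 lower, and 224 to 373 of all genes were called higher and 130 to 285 lower. The lone sample was then assumed to vary like the other group. The group with the lone sample lay in a single batch, so the batch difference entered these values. The genes concerned were LINC00261 without RM- replicate 1, LINC00173 without RM- replicate 2, and LINC00173, LINC00472 and LINC00923 without RM+ replicate 1, and LINC00963 was not called in the latter 2 fits. The median over the LINC genes stayed between -0.08 and -0.03. The remaining alternatives kept the counts of calls at the adjusted threshold within 1.5 times. At an unadjusted p under 0.05, DESeq2 called 7 LINC genes and 1535 of all genes, against 16 and 2553 by limma-trend, and without RM+ replicate 2 limma-trend called 8 and 2067. The causes of the changes under the block and the left-out samples were not tested. Depth limits the 76 LINC genes with a mean under 50, whose median SE was 0.35.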

Other observations

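Of the 13 LINC genes on chromosome 1, 12 had a log2 fold change below 0, with a median of -0.21, a grouping that was noticed after the values were seen. None of the 13 passed the adjusted threshold. The sign was the same in both batches in 7 of the 13 (53.8%), against 62.7% of all genes tested. Among the other lncRNAs of chromosome 1 with a mean of at least 20, 100 of 185 were below 0 (median -0.03), and among all tested genes of the chromosome 921 of 1710 (median -0.02). LINC01709 had the lowest value of the 13, with 26.2 and 28.7 normalized counts in the RM- and 17.3 and 20.2 in the RM+ replicates (-0.53, adjusted p = 0.564). LINC01703 had 46.4 and 38.2 against 29.5 and 32.3 (-0.44, adjusted p = 0.562), and LINC03126 had 44.4 and 49.7 against 36.6 and 35.3 (-0.38, adjusted p = 0.601). The groups did not overlap in any of these 3 genes. This held for 6 of the 13 LINC genes on chromosome 1, against 44.4% of all genes tested. The one gene above 0 was LINC01719, with 41.4 and 35.4 against 34.5 and 47.5 (0.08, adjusted p = 0.947).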
